A study of Homo sapiens with 4 samples.

Results

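Interferon-stimulated genes are the genes that a cell turns up when it receives an interferon signal, and 55 of them were followed through the single arrays of this experiment. They were chosen by name, as a list of well-known members of this response, with earlier results of these data known. The shares of these genes set beside all genes below are therefore descriptions. Gene symbols that the array platform gives to each row were matched to the list. Of the 55, 54 had a row, out of 22458 genes with 1 symbol on the arrays, and STAT2 was not analysed here. The cells were LN229, an established human glioblastoma line. They were transfected with a pool of siRNAs against RAB38 (siRAB38, n = 2 arrays) or with a pool of non-targeting siRNAs (NT, n = 2 arrays). RAB38 is a small GTPase of membrane traffic. All 4 arrays came from cells in medium with 1.5% serum, with RNA taken 48 h after transfection, and whether arrays of the same siRNA stem from separate transfections is not stated in the labels. Values are log2 expression values from the RMA procedure, so a difference of 1 is a doubling.

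Type I interferons such as IFN-beta are small secreted proteins. They bind a receptor on the cell surface, whose JAK kinases activate a complex of transcription factors named ISGF3, of which IRF9 is a part. ISGF3 enters the nucleus and binds a short element, the interferon-stimulated response element (ISRE), before the start of its target genes. The products of these genes degrade foreign RNA, block its translation, hold virus particles at the membrane or feed back on the pathway. Interferon production in turn starts from sensors of foreign nucleic acid, among them TLR3 in endosomes and RIG-I and MDA5 in the cytosol, which bind double-stranded RNA. Some tumour lines keep a part of this response switched on in culture.

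The promoter sequences show what many of these genes share. RefSeq promoter windows of GRCh38.p14, from 250 bases before to 50 bases after each start, were held for 44 of the 54 genes, and those of DHX58, IRF7, IFIT2, OAS2, OASL, MX2, IFITM2, USP18, TRIM22 and CCL5 were missing. The ISRE core was searched as GAAA, any 2 bases and GAAA, on either strand, with overlapping matches counted. At least 1 core was found in 30 of the 44 genes (68.2%), against 4.38% of all 27305 genes in the promoter table. Counted by window, it was found in 34 of 56 windows of these genes (60.7%) and in 3.57% of all 35116 windows. The core of the other interferon element, the gamma-activated site (TTC, any 3 bases, GAA), was found in 15 of the 44 genes (34.1%), against 9.38% of all genes. The windows held 56 ISRE core matches at 52 distinct genome positions, since windows of alternative starts overlap. Of the 56, 48 lay wholly before the start of their window (45 distinct positions), the first base of the core at a median of 99 bases before it. A match is a string of letters and not a measured binding site. The stretches below each show 1 core with its flanks, written 5′ to 3′ along the strand of the gene, with that core in capitals. Those of IFI27, BST2, ISG15 and IFIT1 also hold a further core, which is not set in capitals or only where it overlaps the first. IFI27, IFITM1, BST2, ISG15, IFIT1 and RSAD2 are shown as genes with a core that varied widely between the arrays, and IFI6, LGALS3BP and CXCL10 because they also carry a core and varied little.
IFI27: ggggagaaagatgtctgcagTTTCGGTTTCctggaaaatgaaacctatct
IFITM1: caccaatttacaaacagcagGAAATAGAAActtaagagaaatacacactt
BST2: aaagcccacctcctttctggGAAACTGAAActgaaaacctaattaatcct
ISG15: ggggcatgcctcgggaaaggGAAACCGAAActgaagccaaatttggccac
IFIT1: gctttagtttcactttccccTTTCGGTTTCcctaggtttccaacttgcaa
RSAD2: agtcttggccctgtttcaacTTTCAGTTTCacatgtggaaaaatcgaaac
IFI6: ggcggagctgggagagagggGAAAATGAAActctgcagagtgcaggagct
LGALS3BP: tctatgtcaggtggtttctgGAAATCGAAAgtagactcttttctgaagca
CXCL10: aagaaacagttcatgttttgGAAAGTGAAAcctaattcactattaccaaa
In IFI27, IFIT1 and RSAD2 the core in capitals reads on the opposite strand, so that its capitals are the reverse complement. The further core of IFI27 reads on the strand of the gene. On GRCh38.p14 the stretches lie at chr14:94110608-94110657 for IFI27, chr11:313980-314029 for IFITM1, chr10:89392500-89392549 for IFIT1, chr1:1013370-1013419 for ISG15 and chr2:6877612-6877661 for RSAD2, all of which are on the plus strand. Those of BST2 (chr19:17405731-17405780), IFI6 (chr1:27672319-27672368), LGALS3BP (chr17:78979952-78980001) and CXCL10 (chr4:76023689-76023738) are on the minus strand.

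The silenced gene was examined first. RAB38 read 2.52 and 3.43 in siRAB38 1 and siRAB38 2, against 4.69 and 4.78 in NT 1 and NT 2. The groups did not overlap, at a difference of -1.76 (standard error 0.30, adjusted p = 0.72 from limma), and siRAB38 2 kept more RAB38 RNA than siRAB38 1. The arrays had medians between 3.47 and 3.51 over all rows. Markers of a glioblastoma line were present, with VIM between 11.25 and 11.36 and SOX2 between 7.42 and 7.58, whereas GFAP, the astrocyte filament, was between 2.81 and 3.35. For the 9 measured immune cell markers of 10, which such a line should lack, values were between 1.15 and 3.23, and their sums were 18.3 and 17.9 in siRAB38 1 and siRAB38 2 and 18.3 and 17.5 in NT 1 and NT 2. PTPRC, the defining leukocyte marker, was between 1.23 and 1.35. In bulk RNA, fewer cells that respond and less RNA per cell cannot be told apart. Probe rows of close relatives, such as IFITM1, IFITM2 and IFITM3, may share signal, since the probes behind each row are not given in the sources used here.

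The interferon-stimulated genes varied together, and they did so across the siRNA labels. NT 1 and siRAB38 2 were high, NT 2 was intermediate and siRAB38 1 was low. Relative to each gene's mean over the 4 arrays, the median of the 54 genes was -0.60 in siRAB38 1, 0.30 in siRAB38 2, 0.47 in NT 1 and -0.17 in NT 2, while over all genes these medians were between -0.01 and 0.00. NT 1 was the highest array in 40 genes, siRAB38 2 in 13 and NT 2 in 1 (IFNB1). siRAB38 1 was the lowest in 50 of the 54, against 24.7% of all genes. The full order NT 1, siRAB38 2, NT 2, siRAB38 1 was found in 37 genes, against 3.98% of all genes, and the next most frequent order, with siRAB38 2 above NT 1, in 11. The high pair and the low pair of arrays thus each held 1 array of either siRNA.

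**Figure D1:**
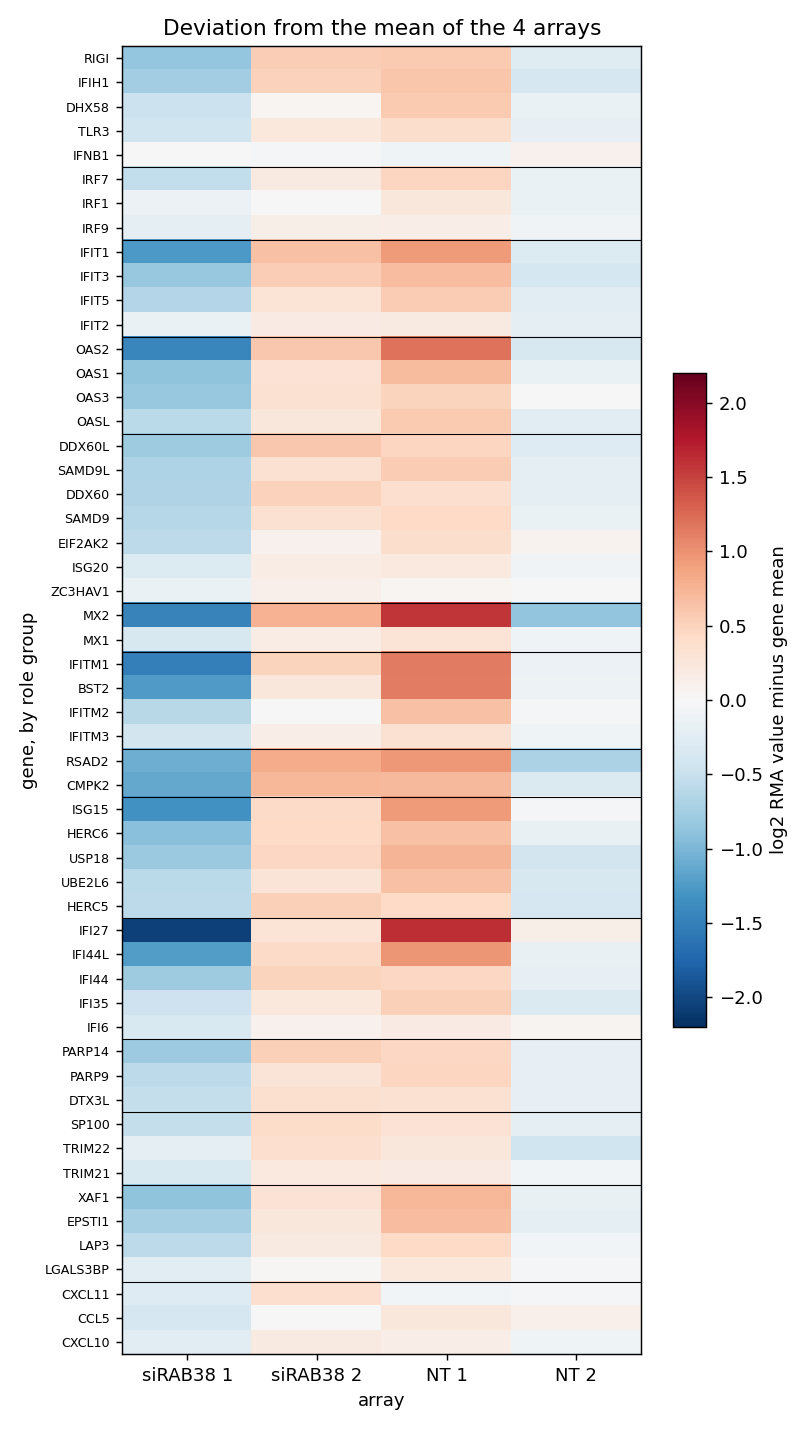
Deviation of each of the 54 interferon-stimulated genes (rows, grouped by role with lines between the groups, in order of range within a group) from its mean over the 4 arrays (columns), in log2 units. Blue fills the siRAB38 1 column in 53 of 54 rows and red the siRAB38 2 and NT 1 columns in 52 each, so that the arrays of 1 siRNA do not look alike.

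Within the NT group, to which no RAB38 siRNA was given, NT 1 exceeded NT 2 by a median of 0.68 over the 54 genes, or 1.6-fold, against a median of 0.00 over all genes. NT 1 was higher by at least 1 in 11 of the 54, against 0.249% of all genes, and NT 2 was higher by that size in 0 of the 54, against 0.169% of all genes. Within the siRAB38 group, siRAB38 2 exceeded siRAB38 1 by a median of 0.94, or 1.92-fold, again against 0.00 over all genes. This difference reached 1 in 24 of the 54 genes, against 0.361% of all genes, and its opposite, siRAB38 1 higher by at least 1, in 0 of the 54, against 0.165% of all genes. Each of these differences sets 1 array against 1 array and therefore has no error of its own and no test. Both ran the same way, whatever their size, in 52 of the 54 genes, against 23.8% of all genes. The exceptions were IFNB1, with differences of -0.18 and -0.04, and CXCL11, a T cell chemokine, with -0.03 between the NT arrays and 0.65 between the siRAB38 arrays.

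Both differences reached 1 in only 13 genes of the whole array, or 0.0579%, and 11 of them were among the 54: IFIT1, IFIT3, OAS2, MX2, IFITM1, BST2, RSAD2, CMPK2, USP18, IFI27 and IFI44L. The other two were RTP4, itself an interferon-stimulated gene, and MIR1231, a microRNA gene. RTP4 read 4.74 and 5.79 in siRAB38 1 and siRAB38 2 and 5.95 and 4.85 in NT 1 and NT 2. Among the 20 genes with the widest range over the 4 arrays, 9 were among the 54, with IFI27 first and MX2 next. Among the 20 with the greatest excess of siRAB38 2 over siRAB38 1, 13 were. Among the 20 with the greatest excess of NT 1 over NT 2, it was 5, and MX2 led all genes. A range of at least 1 was found in 34 of the 54 genes, against 1.81% of all genes, and the median range was 1.17, against 0.31 over all genes. The 54 genes were also brighter, at a median level of 6.92, against 3.55 over all genes. Of the 45 with a mean level of at least 5, 32 had a range of at least 1, and of the 9 with a lower level, 2 had.

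**Figure D2:**
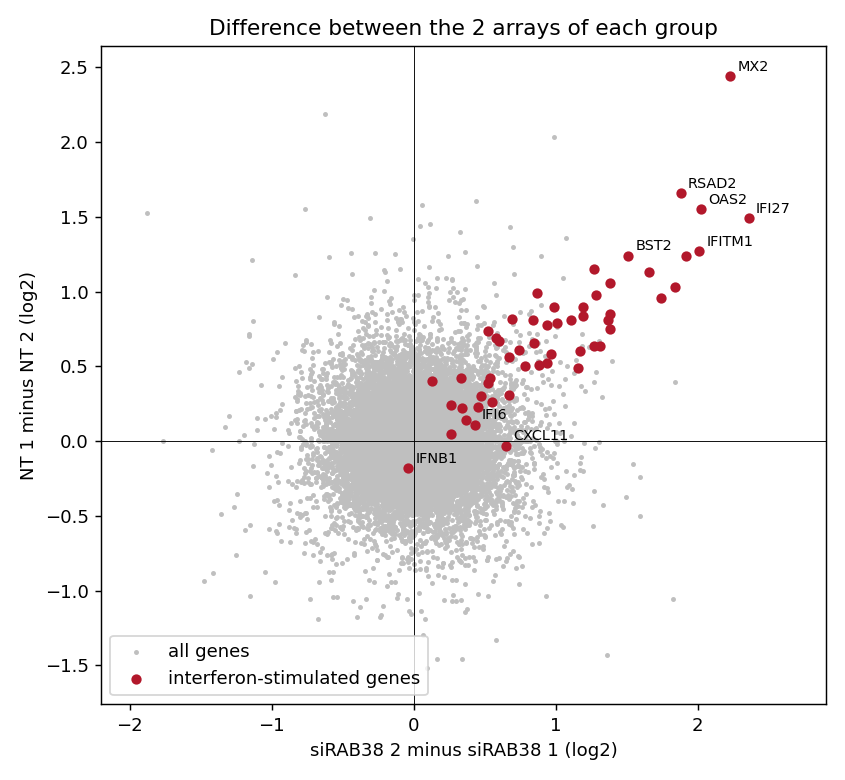
Excess of siRAB38 2 over siRAB38 1 (horizontal axis, log2) against the excess of NT 1 over NT 2 (vertical axis, log2) for all 22458 genes (grey) and the 54 interferon-stimulated genes (red), 1 point per gene. The red points run out of the grey cloud to the upper right, up to MX2 at 2.23 and 2.44, while IFNB1 stays at the centre. The 2 axes share no array.

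Ligand and sensors come first in the pathway. IFNB1, which encodes IFN-beta, read 1.82 and 1.78 in siRAB38 1 and siRAB38 2, against 1.72 and 1.91 in NT 1 and NT 2. These values are close to the low end of the table, which began at 0.41, and their order is not that of the other genes. RIGI, which encodes RIG-I, read 6.87 and 8.25 in siRAB38 1 and siRAB38 2, against 8.29 and 7.45 in NT 1 and NT 2. IFIH1, which encodes MDA5, read 6.07 and 7.35, against 7.45 and 6.47 in NT 1 and NT 2. RIG-I and MDA5 recognise different forms of double-stranded RNA, and their genes are themselves raised by interferon. In both, siRAB38 2 and NT 1 lay within 0.10 of each other. DHX58, for LGP2, a regulator of both sensors, read 4.69 and 5.21 in siRAB38 1 and siRAB38 2, against 5.74 and 5.01 in NT 1 and NT 2. TLR3, the endosomal sensor, read 6.17 and 6.84 in siRAB38 1 and siRAB38 2, against 6.99 and 6.43 in NT 1 and NT 2. In all 4 sensor genes the order of the arrays was the common one and the groups overlapped.

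Of the transcription factors, IRF7, which amplifies interferon production, had the widest range, 1.01, with 4.87 and 5.61 in siRAB38 1 and siRAB38 2, against 5.88 and 5.27 in NT 1 and NT 2. IRF9, the DNA-binding part of ISGF3, read 7.70 and 8.04 in siRAB38 1 and siRAB38 2, against 8.05 and 7.83 in NT 1 and NT 2. IRF1, an early factor that also responds to IFN-gamma, read 4.98 and 5.12, against 5.36 and 4.96 in NT 1 and NT 2. Their ranges of 0.35 for IRF9 and 0.40 for IRF1 were near the median range of all genes, against 1.17 for the 54 genes together.

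The IFIT proteins bind foreign RNA and stop its translation. IFIT1 read 5.41 and 7.32 in siRAB38 1 and siRAB38 2, against 7.61 and 6.37 in NT 1 and NT 2, so that siRAB38 2 was 3.78 times siRAB38 1 and NT 1 was 2.36 times NT 2. IFIT3 followed at a range of 1.52 and IFIT5 at 1.19. IFIT2, which lies next to IFIT3 on chromosome 10, had a range of only 0.42, the smallest of the family, at a mean level of 3.61, also its lowest. The oligoadenylate synthetases are sensors of double-stranded RNA that make a small messenger molecule. OAS2 read 5.72 and 7.75 in siRAB38 1 and siRAB38 2, against 8.36 and 6.81 in NT 1 and NT 2. OAS1 read 6.97 and 8.17, against 8.55 and 7.71 in NT 1 and NT 2. All 4 members of this family (OAS1, OAS2, OAS3 and OASL) had a range of at least 1 and the common order. The range was 2.64 in OAS2 and 1.17 in OASL, which lacks the enzyme activity.

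Among the 7 factors that act on RNA or by other routes, 4 had a range of at least 1, namely SAMD9, SAMD9L, DDX60 and DDX60L. EIF2AK2, the kinase PKR that halts translation on double-stranded RNA, read 8.83 and 9.50 in siRAB38 1 and siRAB38 2, against 9.80 and 9.49 in NT 1 and NT 2. Its siRAB38 1 array stood apart from the other three. ZC3HAV1, the zinc-finger antiviral protein, varied least of the 7, with a range of 0.26.

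MX2 and MX1 are dynamin-like GTPases that trap incoming virus particles, and the 2 genes differed most of any neighbouring pair on the list. MX2 read 3.07 and 5.30 in siRAB38 1 and siRAB38 2, against 6.12 and 3.67 in NT 1 and NT 2. Thus siRAB38 2 was 4.69 times siRAB38 1, and NT 1 was 5.44 times NT 2, a larger ratio than in any other gene of the array. MX1, the next gene on chromosome 21, read 4.30 and 4.82 in siRAB38 1 and siRAB38 2 and 4.95 and 4.56 in NT 1 and NT 2. MX1 followed the same order, but its range was 0.65, against 3.05 for MX2.

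The membrane factors hold virus at the cell surface or in endosomes. IFITM1 read 8.18 and 10.19 in siRAB38 1 and siRAB38 2, against 10.84 and 9.56 in NT 1 and NT 2. BST2, or tetherin, which ties budding virus to the cell, read 5.63 and 7.13 in siRAB38 1 and siRAB38 2, against 8.0 and 6.76 in NT 1 and NT 2. In both genes siRAB38 1 was lowest by more than 1. IFITM2 read 6.01 and 6.61 in siRAB38 1 and siRAB38 2, against 7.26 and 6.59 in NT 1 and NT 2, and siRAB38 2 was level with NT 2. IFITM3, the endosomal member, had a range of only 0.73 at 11.01 to 11.74, close to the top of the table's values (12.02).

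RSAD2, or viperin, makes a chain-terminating nucleotide, and CMPK2, its neighbour on chromosome 2, is a nucleotide kinase. RSAD2 read 4.69 and 6.57 in siRAB38 1 and siRAB38 2, against 6.72 and 5.06 in NT 1 and NT 2. CMPK2 read 4.02 and 5.86, against 5.85 and 4.82 in NT 1 and NT 2. These 2 genes separated the 4 arrays into a high and a low pair, each pair holding 1 array of either siRNA.

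ISG15 is a ubiquitin-like protein that is joined to other proteins by UBE2L6 and HERC5 and removed by USP18, which also blocks the interferon receptor. ISG15 itself read 5.42 and 7.16 in siRAB38 1 and siRAB38 2, against 7.68 and 6.73 in NT 1 and NT 2. USP18 read 7.51 and 8.78, against 9.07 and 7.92 in NT 1 and NT 2. HERC6, a relative of HERC5, read 6.45 and 7.82 in siRAB38 1 and siRAB38 2, against 8.02 and 7.21 in NT 1 and NT 2. All 5 genes of this group had a range of at least 1, from 1.11 in HERC5 to 2.26 in ISG15, and the modifier, its conjugating enzymes and its protease were high and low on the same arrays.

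The IFI genes held the widest and one of the narrowest ranges. IFI27, a mitochondrial and nuclear-envelope protein that is a common marker of an interferon response, read 5.61 and 7.97 in siRAB38 1 and siRAB38 2, against 9.30 and 7.81 in NT 1 and NT 2. Its range of 3.69, or 12.9-fold, led all 22458 genes. IFI44L, the neighbour of IFI44 on chromosome 1, read 7.31 and 8.97 in siRAB38 1 and siRAB38 2, against 9.51 and 8.38 in NT 1 and NT 2. IFI6, which belongs to the same family of small proteins as IFI27, read 11.10 and 11.53, against 11.63 and 11.51 in NT 1 and NT 2. IFI6 thus had the order of IFI27 at a range of 0.53.

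**Figure D3:**
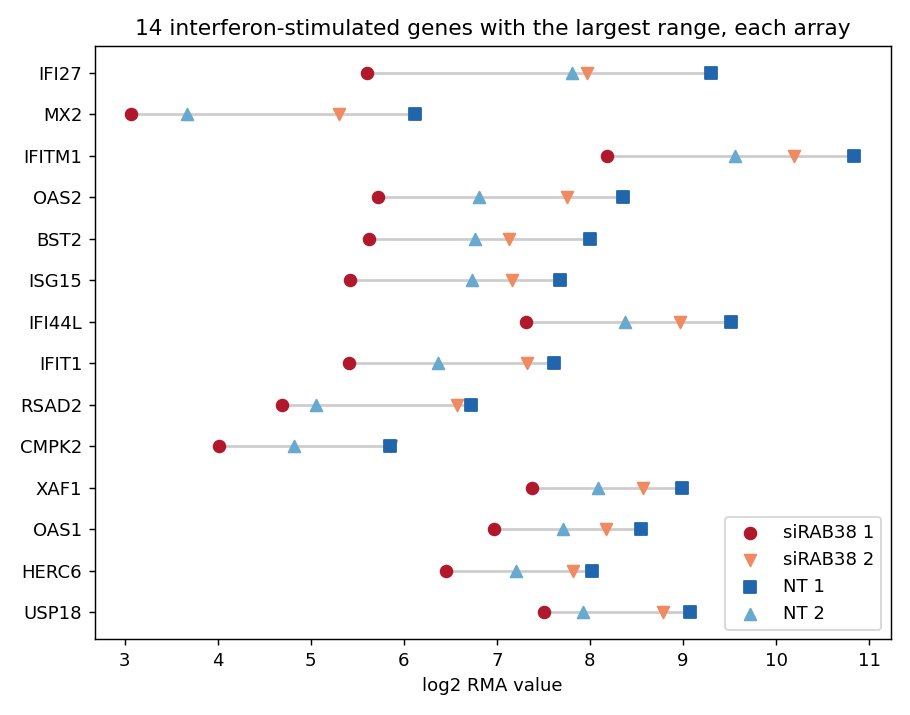
Log2 value (horizontal axis) on each array for the 14 interferon-stimulated genes with the widest range, from IFI27 (3.69) at the top down to USP18 (1.56). Red symbols are siRAB38 arrays and blue symbols NT arrays, and grey lines span the range. siRAB38 1 is at the left end in each row and NT 2 next to it, while NT 1 and siRAB38 2 are at the right.

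PARP9, PARP14 and DTX3L, which act together in ADP-ribosylation and ubiquitination, had ranges of 0.88 to 1.31. SP100, TRIM21 and TRIM22, of nuclear bodies and antiviral ubiquitination, had ranges of 0.55 to 0.94. In all 3, NT 1 exceeded NT 2 and siRAB38 2 exceeded siRAB38 1, but none had the common order. siRAB38 2 exceeded NT 1 by 0.09 in SP100, 0.03 in TRIM21 and 0.12 in TRIM22. It did so too in PARP14 (0.06) and DTX3L (0.02), which also lacked the common order. XAF1, a pro-apoptotic gene, read 7.38 and 8.57 in siRAB38 1 and siRAB38 2, against 8.99 and 8.09 in NT 1 and NT 2. LGALS3BP, a secreted glycoprotein, read 10.07 and 10.33, against 10.54 and 10.29 in NT 1 and NT 2. The chemokines CXCL10, CXCL11 and CCL5, which call T cells to a site of infection, had ranges of 0.45 to 0.65. CXCL10 and CXCL11 belonged, with IFNB1, to the dimmest 30% of genes. Whether their low level affected the ranges of these genes was not tested.

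Between siRAB38 and NT, the question was whether silencing changed these genes. In limma with Benjamini-Hochberg adjustment over all 22458 genes, 0 of the 54 passed an adjusted p of 0.05, as did 0% of all genes. At an unadjusted p under 0.05 the count was 0 of the 54, against 6.85% of all genes (1539 genes, and 1473 by the methods' t-test). The adjusted p of the 54 ran from 0.724 to 0.995. The mean was lower in siRAB38 in 51 of the 54 genes, against 48.3% of all genes, and the median difference was -0.29 on the log2 scale (81.6% of NT), against 0.01 over all genes. The 3 with a positive difference were TRIM22 (0.17), CXCL11 (0.08) and IFIT2 (0.03). siRAB38 lay wholly below NT in 1 of the 54, against 17.2% of all genes, and wholly above it in 0 of the 54, against 18.8% of all genes. The groups therefore overlapped in 53 of the 54.

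The direction of the median depended on which arrays were compared. siRAB38 1 minus NT 1 had a median of -1.12 (53 genes below 0), and siRAB38 1 minus NT 2 one of -0.41 (51 genes below 0). siRAB38 2 minus NT 1 had a median of -0.19 (40 genes below 0), but siRAB38 2 minus NT 2 one of 0.48 (52 genes above 0). Without siRAB38 1 the median log2 fold change was 0.14, and without NT 1 it was 0.03. Without siRAB38 2 it was -0.77, and without NT 2 it was -0.63. The lower mean in siRAB38 thus rested on siRAB38 1 and on NT 1. RAB38 RNA was lowest in siRAB38 1 as well, and its part in these differences was not tested; between the NT arrays RAB38 differed by only -0.09 (NT 1 minus NT 2).

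**Figure D4:**
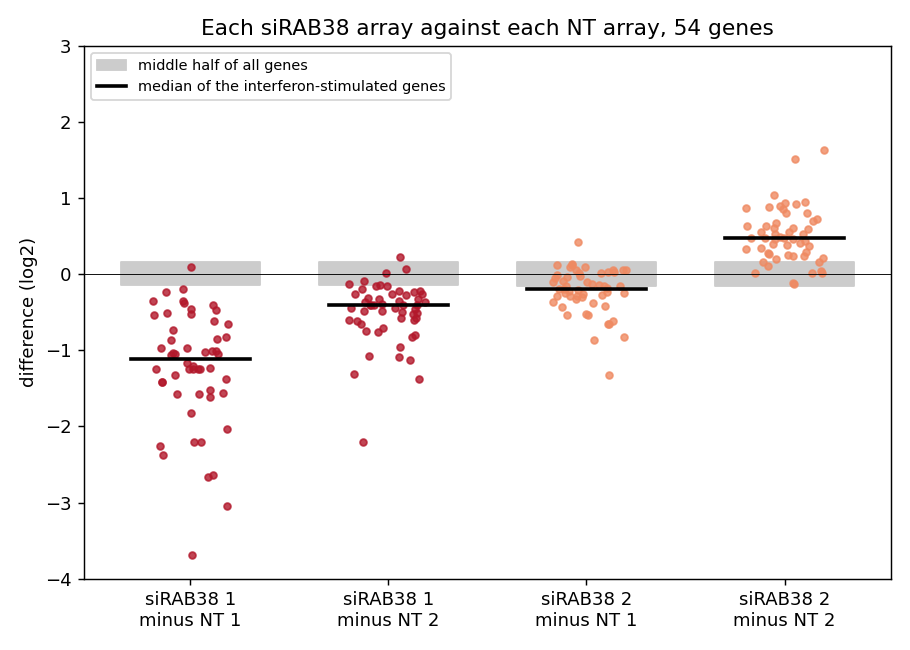
Difference (log2) of each siRAB38 array from each NT array for the 54 interferon-stimulated genes, 1 point per gene, with black lines at the medians (-1.12, -0.41, -0.19 and 0.48) and grey bands over the central quartiles of all genes. The points lie below 0 for siRAB38 1 and mostly above 0 where siRAB38 2 is set against NT 2.

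The genes with the smallest p show how the spread within a group compared with the difference between groups. IFI27 averaged 6.79 ± 1.67 in siRAB38 and 8.55 ± 1.05 in NT (SD, n = 2 each), a log2 fold change of -1.76 (95% confidence interval -3.99 to 0.47, limma adjusted p = 0.738). This was the same size as the change of RAB38, but with a standard error of 0.88, against 0.30 for RAB38. CCL5 was the gene without overlap, at 4.11 and 4.48 in siRAB38 1 and siRAB38 2, against 4.73 and 4.59 in NT 1 and NT 2. Its log2 fold change was -0.36 (95% confidence interval -0.77 to 0.04, limma adjusted p = 0.724). IFITM2 had a log2 fold change of -0.62 (limma adjusted p = 0.733), EIF2AK2 of -0.48 (limma adjusted p = 0.746) and BST2 of -1.0 (limma adjusted p = 0.774). For ISG15 it was -0.91 (limma adjusted p = 0.801), for IFI6 -0.25 (limma adjusted p = 0.799) and for LGALS3BP -0.22 (limma adjusted p = 0.802). None of these exceeded the spread between arrays by the test. All 8 kept a negative sign whichever array was left out, but without siRAB38 1 the log2 fold change was -0.58 for IFI27, -0.18 for CCL5, -0.32 for IFITM2, -0.15 for EIF2AK2, -0.25 for BST2, -0.04 for ISG15, -0.04 for IFI6 and -0.09 for LGALS3BP. Without NT 1 it was -1.02 for IFI27, -0.28 for IFITM2, -0.38 for BST2, -0.43 for ISG15 and -0.10 for LGALS3BP, and without siRAB38 2 or NT 2 each of the 8 was further from 0. With 2 against 2 arrays an exact permutation test of a single gene could not give a two-sided p below 0.333.

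Genes that lie side by side did not always vary alike. By the order of protein-coding genes on GRCh38.p14, 26 of the 54 were direct neighbours of another of them, in 14 pairs. In IFITM1 and IFITM3 the ranges were 2.66 and 0.73, and in IFIT3 and IFIT2 they were 1.52 and 0.42, whereas RSAD2 and CMPK2 were alike at 2.03 and 1.84. The 30 genes with an ISRE core had a median range of 1.18, and 20 of them had a range of at least 1. The 14 without it had a median range of 1.09, and 7 of them had a range of at least 1. IFI27, with a core printed above, had the widest range of all, and CXCL10, also with a core, a range of 0.45. CXCL10 was dim, at a mean level of 1.46. IFIT2, at 3.61, lay close to the median of 3.55 over all genes and below that of the 54 genes, 6.92. Whether low signal narrowed the ranges of CXCL10 and IFIT2 was not tested.

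**Figure D5:**
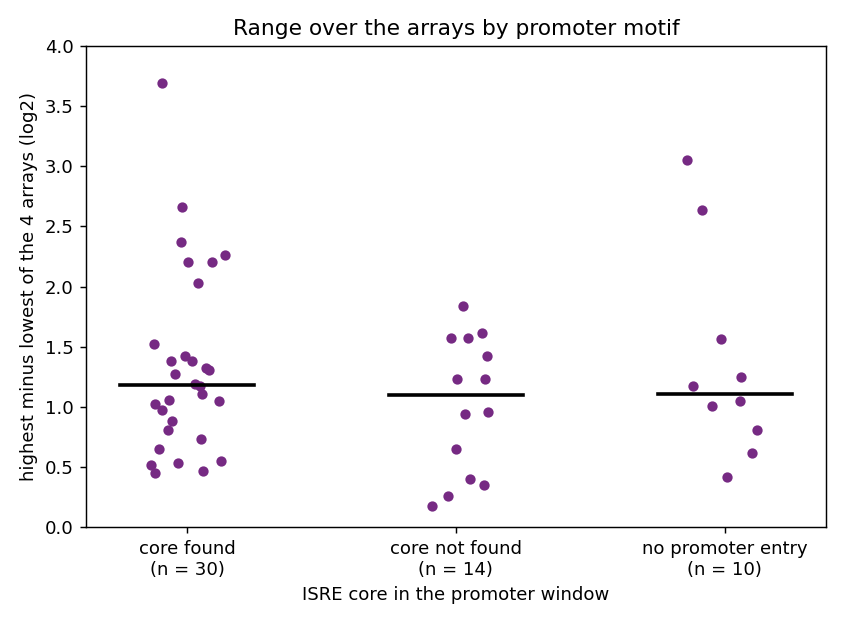
Range over the 4 arrays (vertical axis, log2) of the 54 interferon-stimulated genes, split by whether the ISRE core was found in a RefSeq promoter window, 1 point per gene and black lines at the medians. The genes with the core (median 1.18, n = 30), without it (1.09, n = 14) and without a promoter entry (1.11, n = 10) have medians within 0.10 of each other, and single genes run from 0.45 to 3.69, from 0.18 to 1.84 and from 0.42 to 3.05.

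Other genes of the pathway were examined in 5 lists, and none of their genes passed an adjusted p of 0.05 between siRAB38 and NT. Of the receptors and the JAK and STAT genes, 10 of 11 were measured. Their medians were -0.04 for NT 1 minus NT 2 and 0.12 for siRAB38 2 minus siRAB38 1. A range of at least 1 was found in 0 of the 10, but also in only 1.81% of all genes. TYK2, a kinase, had the widest range of this list. It read 5.72 and 5.98 in siRAB38 1 and siRAB38 2, against 5.96 and 6.11 in NT 1 and NT 2. Among 18 of 20 other interferon ligands measured, both differences had medians of 0.03, and IFNA4 alone had a range of at least 1, at 0.98 to 2.13 and with siRAB38 2 lowest. Adaptors, kinases and further sensors, 19 of 20 measured, had medians of 0.11 and 0.04. Both differences were above 0 in 10 of the 19, and 4 had the common order. Of these, TRIM25 is a ubiquitin ligase of the RIG-I route. It read 8.07 and 8.55 in siRAB38 1 and siRAB38 2 and 8.59 and 8.33 in NT 1 and NT 2. TLR8, with a range of 0.66, and AIM2, with 0.52, did not have the common order. Of 10 negative regulators, 3 had both differences above 0 and 2 had the common order. Among the latter, SAMHD1 depletes nucleotides and is itself raised by interferon. It read 8.78 and 9.66 in siRAB38 1 and siRAB38 2, against 10.07 and 9.53 in NT 1 and NT 2. SOCS1 and PTPN6 ran the other way between the NT arrays, with -0.61 and -0.24 for NT 1 minus NT 2. In these 4 lists the medians of both differences lay between -0.04 and 0.18, against 0.68 and 0.94 for the 54 interferon-stimulated genes.

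A further 47 interferon-stimulated genes outside the 54 (of 48 listed) had medians of 0.42 for NT 1 minus NT 2 and 0.37 for siRAB38 2 minus siRAB38 1. Both differences were above 0 in 38 of the 47, against 23.8% of all genes. The common order was found in 23, against 3.98% of all genes. A range of at least 1 was found in 10, against 1.81% of all genes. GBP1, a guanylate-binding GTPase, read 5.96 and 7.27 in siRAB38 1 and siRAB38 2, against 7.41 and 6.74 in NT 1 and NT 2. APOL6, an apolipoprotein L gene, read 5.30 and 6.34, against 6.70 and 6.17 in NT 1 and NT 2. SP110, a nuclear body gene, read 6.47 and 7.28 in siRAB38 1 and siRAB38 2, against 7.71 and 6.98 in NT 1 and NT 2. In these 3 genes the arrays had the common order.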

How the data were processed

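Total RNA was labelled with the WT Plus kit of Affymetrix, and RMA (background correction, quantile normalization and probe summary, with affy 1.60.0 under R 3.5.1 by the submitters' processing notes) gave the log2 values that the authors deposited in 1 table. RMA hides a change common to all genes. Of 23786 rows, 22458 had 1 symbol in the platform annotation and 1328 had none and were not named. Groups came from the siRNA labels. siRAB38 was set against NT on these log2 values by limma 3.58.1 (R 4.3.3, no trend), with p adjusted over all named genes. A p-value here reflects array-to-array spread alone, and that spread may be technical. Named were RAB38, the ligand, sensor and factor genes, the 14 members of the list with the widest range, the 8 with the smallest p, up to 3 per further list and 8 outside genes, besides a few singled out after their values were seen. The members and lists were chosen with earlier results of these data known. Alternatives covered centring, normalization, dim genes, unnamed rows, the variance prior, array weights, a replicate block, the t-test and leaving out each array.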

Additional observations from a re-analysis of the deposited data

How the results depend on the processing

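With 2 arrays per group, leaving out 1 array decided the direction of most results. Without 1 array at a time, the median log2 fold change of the 54 interferon-stimulated genes (siRAB38 minus NT) ran from -0.77 to 0.14, the number with a lower mean in siRAB38 from 12 to 53, and the number with siRAB38 wholly below NT from 1 to 50. With an array left out, wholly below sets 1 array against 2, which is easier to meet than 2 against 2. The share of all genes that met it was not counted in those settings. The cause of these shifts was not tested. The sign of single genes also depended on the array left out. IFNB1 ran from -0.11 without NT 1 to 0.08 without NT 2. Unlike the median, IFNB1 stayed negative without siRAB38 1 (-0.03). The ranges were -0.53 to 0.14 for TLR3, -1.0 to 0.38 for RIGI and -0.89 to 0.39 for IFIH1. For the factors they were -0.31 to 0.09 for IRF1, -0.70 to 0.04 for IRF7 and -0.24 to 0.10 for IRF9. The ranges were -1.93 to 0.51 for MX2, -1.86 to 0.16 for OAS2, -1.58 to 0.34 for IFIT1, -1.63 to 0.02 for IFI44L, -1.20 to 0.68 for RSAD2, -1.32 to 0.52 for CMPK2, -1.16 to 0.03 for XAF1, -1.16 to 0.04 for OAS1, -1.16 to 0.20 for HERC6 and -0.98 to 0.29 for USP18. The other 11 named genes stayed negative: RAB38 (-2.21 to -1.31), DHX58 (-0.79 to -0.06), IFI27 (-2.94 to -0.58), IFITM1 (-2.02 to -0.01), BST2 (-1.75 to -0.25), ISG15 (-1.78 to -0.04), CCL5 (-0.55 to -0.18), IFITM2 (-0.95 to -0.28), EIF2AK2 (-0.82 to -0.15), IFI6 (-0.47 to -0.04) and LGALS3BP (-0.35 to -0.09). With each array centred on its median, 4 of the 54 genes had both siRAB38 arrays below both NT arrays, against 1 before centring. The share over all genes was 17.2% before centring and was not counted after it. At a size of 0.5 in place of 1, NT 1 exceeded NT 2 in 37 of the 54 genes and siRAB38 2 exceeded siRAB38 1 in 44. The share of all genes at this size was not counted. Over all genes the quartiles were -0.14 and 0.13 for NT 1 minus NT 2 and -0.16 and 0.16 for siRAB38 2 minus siRAB38 1. The lowest values among the 54 were -0.18 and -0.04, so no gene of the 54 reached 0.5 in the opposite direction. No gene passed the adjusted threshold in any of the 14 fits, in which 920 to 1626 genes had an unadjusted p under 0.05. Whether same-numbered arrays are paired is not stated in the labels. Over all genes, NT 1 minus NT 2 correlated at -0.0546 with siRAB38 1 minus siRAB38 2. That value cannot decide it, since a pairing seen in few genes would leave it small. With the replicate block, 0 genes passed, 1249 had an unadjusted p under 0.05 and the smallest adjusted p of the 54 was 0.798.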

Other observations

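Outside the interferon lists, 8 genes had the greatest differences in the direction NT 1 over NT 2 and siRAB38 2 over siRAB38 1, ranked by the smaller of the 2 differences, which ran from 0.72 to 1.07. They were MIR1231, MIR3194, TRANK1, CTBP2, MTHFS, TRAV12-1, RNU105B and PRAMEF10. TRANK1, a large gene with ankyrin and tetratricopeptide repeats, read 5.26 and 6.16 in siRAB38 1 and siRAB38 2, against 6.17 and 5.26 in NT 1 and NT 2. MIR3194, a microRNA gene, read 3.16 and 4.15 in siRAB38 1 and siRAB38 2, against 4.13 and 2.10 in NT 1 and NT 2. CTBP2, a transcriptional corepressor, read 2.65 and 3.54, against 4.43 and 3.19 in NT 1 and NT 2. None passed an adjusted p of 0.05 in limma between siRAB38 and NT, with values from 0.80 to 1.00. These genes were ranked by the pattern they show, so that their values are a description.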
